A study of Mus musculus with 4 samples.

Results

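The proteasome genes of NIH/3T3 mouse fibroblasts were examined after knockdown of Setd2, which encodes the histone methyltransferase that deposits H3K36me3. Members were all protein-coding transcripts of the deposited table whose gene symbol begins with Psm, continues with a letter from a to g and then carries a digit, which gave 71 transcripts of 49 genes among 34200 transcripts of 21945 genes. NIH/3T3 is an established line of immortalised mouse fibroblasts. Knockdown (KD) cells received a mix of 2 Setd2-specific siRNAs and wild type (WT) cells a Scrambled siRNA, both delivered at 10 nM with a lipid reagent, and polyA RNA was taken 48 h later from 2 KD and 2 WT libraries. Every library therefore came from transfected cells, and WT means treated with the Scrambled siRNA, not left untreated. The labels give replicate numbers only. The design text of the series speaks of independent transfections without tying them to libraries, so p-values measure the spread between these libraries of 1 line, which may be technical.

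The proteasome is the protease that degrades ubiquitin-tagged proteins in the cytosol and nucleus. Its core particle is a barrel of stacked rings, with alpha subunits (Psma genes) forming the gates at the ends and beta subunits (Psmb genes) carrying the active sites inside. A regulatory particle caps the barrel. Its base holds a ring of ATPases (Psmc genes) that unfold the substrate, and its lid (Psmd genes) removes the ubiquitin chain. Activators (Psme genes) can take the place of the regulatory particle, immune cells and cells under interferon exchange the catalytic beta subunits for inducible ones, and dedicated chaperones (Psmg genes and a few Psmd genes) guide assembly. Subunit genes are known to be induced together by the transcription factor Nfe2l1 with its small Maf partners when proteasome activity falls short.

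The promoters of the 3 genes whose lead transcripts, those with the highest level of a gene, had the largest differences that passed the test, Psmd8, Psmb5 and Psmb6, are shown to place the values below on sequence. Each window holds 250 bases before and 50 bases after a transcription start annotated by RefSeq on GRCm38.p6 and is written 5′ to 3′ on the strand of the gene. Capitals mark matches, on either strand, to 5 words that are discussed with the promoters below. Psmb5 lies on the minus strand with its window at chr14:54617946-54618245, Psmb6 on the plus strand at chr11:70525107-70525406, and Psmd8 on the minus strand at chr7:29180624-29180923. The Psmd8 window is set on the start at 29180673, that of a minor transcript with 0.461% of the level of the gene. The lead transcript of Psmd8 starts at 29180552, downstream of the window, so its own start is not shown.
Psmb5: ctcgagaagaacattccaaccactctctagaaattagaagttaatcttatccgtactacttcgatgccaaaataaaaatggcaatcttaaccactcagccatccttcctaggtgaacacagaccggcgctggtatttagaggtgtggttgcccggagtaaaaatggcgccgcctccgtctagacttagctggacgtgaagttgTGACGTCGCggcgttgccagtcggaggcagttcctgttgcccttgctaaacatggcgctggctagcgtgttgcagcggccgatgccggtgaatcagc
Psmb6: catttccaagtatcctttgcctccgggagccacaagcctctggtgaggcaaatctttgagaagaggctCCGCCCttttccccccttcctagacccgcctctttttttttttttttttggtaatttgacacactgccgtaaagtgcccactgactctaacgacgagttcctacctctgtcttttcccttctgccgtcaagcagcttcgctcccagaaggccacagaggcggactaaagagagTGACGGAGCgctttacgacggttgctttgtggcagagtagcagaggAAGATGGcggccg
Psmd8: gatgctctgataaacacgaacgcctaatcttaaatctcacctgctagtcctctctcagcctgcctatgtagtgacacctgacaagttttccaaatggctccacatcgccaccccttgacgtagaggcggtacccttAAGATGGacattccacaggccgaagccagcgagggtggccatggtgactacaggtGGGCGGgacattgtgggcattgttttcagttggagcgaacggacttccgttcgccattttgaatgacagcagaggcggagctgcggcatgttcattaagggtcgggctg
The capitals in Psmb5 are a match to TGACNNNGC, those in Psmb6 are matches to GGGCGG on the other strand, TGACNNNGC and AAGATGG, and those in Psmd8 are matches to AAGATGG and GGGCGG.

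Levels are given as normalised estimated counts, the authors' mean over all 4 libraries on the log scale turned back to counts. The values in each library are not analysed here and the depth is unknown, so that neither a value per library nor a counting error is given. The difference between KD and WT was rebuilt from the deposited variances and therefore has a size but no sign. For each gene the means of the 2 groups are known as a pair, without knowing which of them is KD, so that the direction of the Setd2 difference could not be checked either. Such a size is above 0 from noise alone and is read against its standard error (SE) and its adjusted p from a moderated F test of limma, which was adjusted by Benjamini-Hochberg over all 34200 transcripts. Setd2 itself, on chromosome 9 from 110532597 to 110618633 (GRCm38), had a level of 1844 and differed by 1.99 on the log2 scale (SE 0.08, 95% interval 1.78 to 2.21, adjusted p = 0.0144, limma). Of 10 fibroblast markers 9 were in the table, from 6.99 for Lum to 323250 for Fn1 with a median of 99942, whereas the 8 markers of epithelial, immune, endothelial and muscle cells that were in the table reached at most 343 (Cd68).

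Levels of genes were compared per kilobase of transcript, summed over the transcripts of a gene. Both rings of the core particle stood highest. The 7 alpha genes had a median of 10324 normalised estimated counts per kilobase and ranged from 4228 (Psma2) to 15445 (Psma7), which was the highest level of all members. The 7 constitutive beta genes had a median of 11300 and ranged from 3486 (Psmb5) to 13519 (Psmb6). Within each ring, where the subunits are present in equal number in the assembled particle, the highest and the lowest mRNA level per kilobase differed 3.65-fold for alpha and 3.88-fold for beta genes. Psma8, the alpha subunit known from testis, was not analysed here.

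The regulatory particle followed. The 6 ATPase genes had a median of 6329 per kilobase and kept within a narrow band from 5641 (Psmc2) to 8634 (Psmc1), a ratio of 1.53. The 3 base subunits without ATPase activity had a median of 6850, with the scaffold subunit Psmd2 at 9493 and the scaffold subunit Psmd1 at 4532. The 8 lid genes had a median of 4172 and ranged from 3453 (Psmd12) to 7043 (Psmd7). Psmd14, the lid enzyme that cuts off ubiquitin, had 4228 per kilobase. The 3 chaperones that help to assemble the base, Psmd5, Psmd9 and Psmd10, carry Psmd symbols but had 856, 819 and 1468 per kilobase, below every gene of the lid and the base.

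Activators, the inhibitor and the assembly factors of the core had lower medians than the core genes they act on. Among activators, Psme2 had 5436 per kilobase, its partner Psme1 1663, the nuclear activator Psme3 3744 and the large single-chain activator Psme4 1069. Psme2b, a copy of Psme2 with 1 exon, had 24.2 per kilobase and shared 76.5% of its 31-base words with Psme2, so that its reads and those of Psme2 may not be separable. The inhibitor Psmf1 had 682 per kilobase. The alpha ring chaperones Psmg1, Psmg2, Psmg3 and Psmg4 had 1591, 1929, 1313 and 2845 per kilobase, with a median of 1760. Psmc3ip, which the symbol rule also takes, acts in meiotic recombination and is no proteasome subunit. It had 951 per kilobase.

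**Figure D1:**
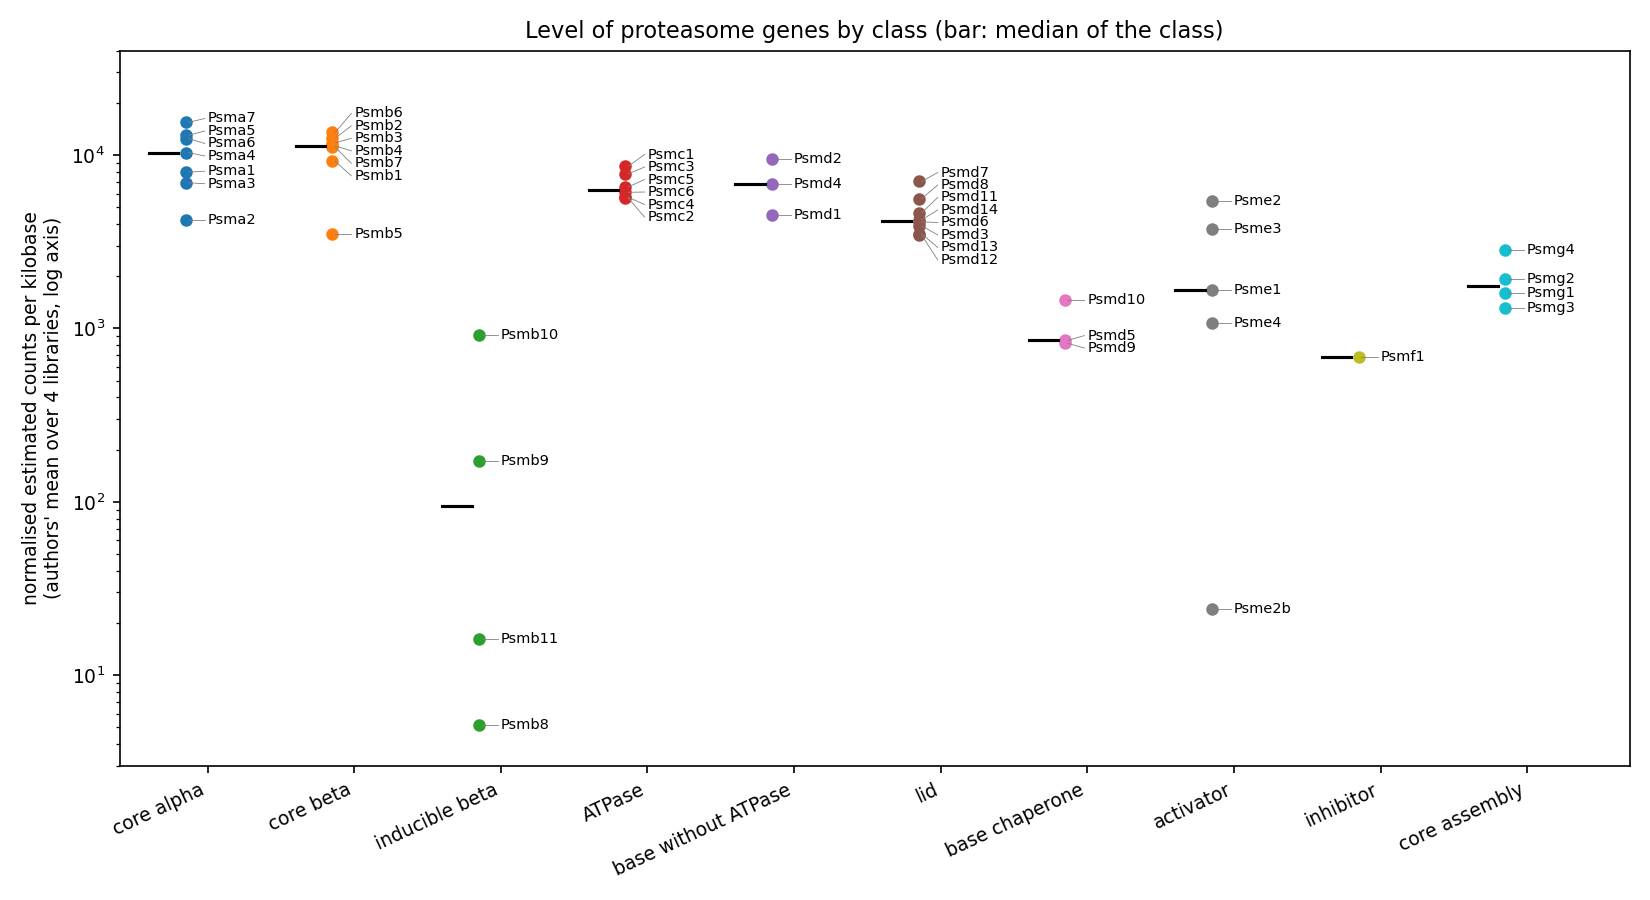
Level of each proteasome gene in normalised estimated counts per kilobase (vertical log axis, authors' mean over the 4 libraries) by class, with 1 point per gene and a bar at the median of the class. Constitutive core genes lie between 3486 and 15445, the regulatory particle between 3453 and 9493, and the inducible beta genes spread from 5.15 to 914.

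The inducible catalytic subunits were at a small part of the level of the constitutive subunits whose place they take. Psmb8, which replaces the chymotrypsin-like subunit Psmb5, had 5.15 per kilobase, or 0.148% of Psmb5. Psmb9, which replaces the caspase-like subunit Psmb6, had 173 per kilobase, or 1.28% of Psmb6. Psmb10, which replaces the trypsin-like subunit Psmb7, had 914 per kilobase, or 8.23% of the 11116 of Psmb7. The sum of the 3 inducible genes was 3.88% of the sum of the 3 constitutive genes. Psmb11, the thymus form, had 16.2 per kilobase. The order was thus Psmb10, Psmb9, Psmb11, Psmb8, and neighbours in this order differed more than 3-fold. The SD within groups for the 4 inducible genes ranged from 0.20 to 0.32 on the log2 scale. The SD from the assignment of reads to transcripts was 0.05 for Psmb10, 0.09 for Psmb9, 0.18 for Psmb11 and 0.51 for Psmb8. Psmb8 had a level of only 8.38 normalised estimated counts. Psmb9 shared 13.8% of its words with its neighbour Tap1, a gene of antigen processing with a level of 1549.

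Between KD and WT, 17 of the 71 member transcripts, of 14 genes, had an adjusted p under 0.05 (limma), which is 23.9% against 9.68% of all transcripts. Proteasome transcripts are abundant, and abundant transcripts passed more often. At a mean level of 1000 or more, 15 of 48 members passed (31.2%) against 20.8% of all. With 1 transcript tested per gene, an alternative chosen after seeing the data, 25 of 49 genes passed (51.0%) against 24.0% of all genes. This comparison was not matched for level: the median level of the lead transcripts was 7596 in members and 193 over all genes. The median size over the lead transcripts was 0.33 on the log2 scale, against 0.25 over all lead transcripts with a mean of at least 1000. The median SD within groups was also larger in members, 0.12 against 0.08, and a size without sign grows with that spread. The part of the spread in the larger sizes was not tested. Members share libraries and are known to be controlled together, so these shares are descriptions of the list. The calls rest on the estimate of the spread: when limma's prior variance did not follow the mean level, 0 member transcripts passed (127 in the whole table), with 22 members at an unadjusted p under 0.05, and without moderation 0 members passed, with 19 at an unadjusted p under 0.05.

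By class, the calls over lead transcripts can be set beside 21.7% of all lead transcripts with a mean of at least 1000. None of the 7 alpha genes passed, 5 of 7 constitutive beta genes did, and in the regulatory particle 1 of 6 ATPase genes, 2 of 3 other base genes and 5 of 8 lid genes did. Outside these, 1 of 4 core assembly factors passed, while 0 of 5 activators, 0 of 4 inducible beta genes and 0 of 3 base chaperones passed, and the inhibitor did not pass. With 1 transcript tested per gene, 4 of 7 alpha, 5 of 7 beta and 5 of 6 ATPase genes passed. So did 2 of 3 other base and 5 of 8 lid genes. Most of the contrast between alpha genes and the rest was therefore absent in that fit. It called 24.0% of all genes, and no share at a mean of at least 1000 was computed for it. At an unadjusted p under 0.05, 12 of the 14 constitutive core genes, 15 of the 17 ATPase, base and lid genes, 2 of the 6 activators and inhibitor, and 3 of the 7 assembly factors and chaperones stood. Over all lead transcripts this share was 29.6%, and at a mean of at least 1000 it was 3748 of 7493, so the last 2 counts lie near the background. A difference between classes was not tested.

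Among the constitutive beta genes, catalytic subunits had the 2 largest sizes. Psmb5, the chymotrypsin-like subunit, had group means of 1543 and 2796 normalised estimated counts, a 1.81-fold difference with a 95% interval from 1.58 to 2.08. On the log2 scale this was 0.86 (SE 0.07, adjusted p = 0.0173, limma), and the groups accounted for 99.8% of the variance over the 4 libraries. The SD within groups, 0.03, was below the 0.05 from the assignment of reads to transcripts. With 2 libraries per group, that share may therefore be too high. Psmb6, the caspase-like subunit, had group means of 8023 and 14505, a 1.81-fold difference (1.48 to 2.21, adjusted p = 0.0254). Psmb7, the trypsin-like subunit, had group means of 10153 and 16377, a 1.61-fold difference (1.31 to 1.99, adjusted p = 0.0369). All 3 constitutive catalytic subunits thus passed in the fit over all transcripts. As for all members, none of them passed with a prior variance that did not follow the mean level, or without moderation.

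Of the beta subunits without catalytic activity, Psmb3 had group means of 6872 and 11821 (1.72-fold, 1.44 to 2.05, adjusted p = 0.0245, limma) and Psmb2 of 8909 and 13025 (1.46-fold, 1.22 to 1.75, adjusted p = 0.0414). Psmb4 had 11904 and 15013 (adjusted p = 0.163), and Psmb1 had 14724 and 16527 (adjusted p = 0.414), and neither passed. Reads of 2 of the called beta genes may be shared with copies. Only 26.0% of the 31-base words of the Psmb5 lead transcript and 33.2% of those of Psmb3 occurred in no other gene of GENCODE M21. Psmb5 shared 61.7% of its words with Gm3375, which had a level of 504, and Psmb3 shared 51.8% with AC114990.3, which had a level of 119. For Psmb6 and Psmb7 the unique shares were 84.6% and 66.5%. The part of shared reads in these results was not tested.

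For the alpha genes, the lead transcripts differed by 0.24 (Psma5) to 0.42 (Psma2) on the log2 scale, with a median of 0.33, against 0.17 to 0.86 with a median of 0.69 for the beta genes. Psma7, the alpha gene with the highest level, had group means of 12348 and 15795 (1.28-fold, 1.07 to 1.53, adjusted p = 0.0973, limma). Psma2 had 10639 and 14241 (1.34-fold, 1.10 to 1.62, adjusted p = 0.0783). With 1 transcript per gene, 4 of the 7 alpha genes passed, namely Psma2, Psma4, Psma6 and Psma7, with adjusted p from 0.0194 to 0.0352 (limma). In that fit 24.0% of all genes passed, without a limit on their level. The absence of calls among alpha genes in the fit over all transcripts is therefore not evidence that they stayed the same.

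The inducible beta genes gave no call. Psmb9 had the largest size among the lead transcripts of members, with group means of 169 and 323 and a difference of 0.93 on the log2 scale. Its SE of 0.24 was wide, and its adjusted p was 0.0840 (limma), or 0.0134 with 1 transcript per gene. Psmb10 had group means of 1089 and 1320 (adjusted p = 0.455), Psmb11 of 62.9 and 75.2 (adjusted p = 0.528) and Psmb8 of 8.16 and 8.61 (adjusted p = 0.944). At the level of Psmb8 the interval reached from 1-fold to 2.58-fold, so a difference was not detectable with these libraries.

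**Figure D2:**
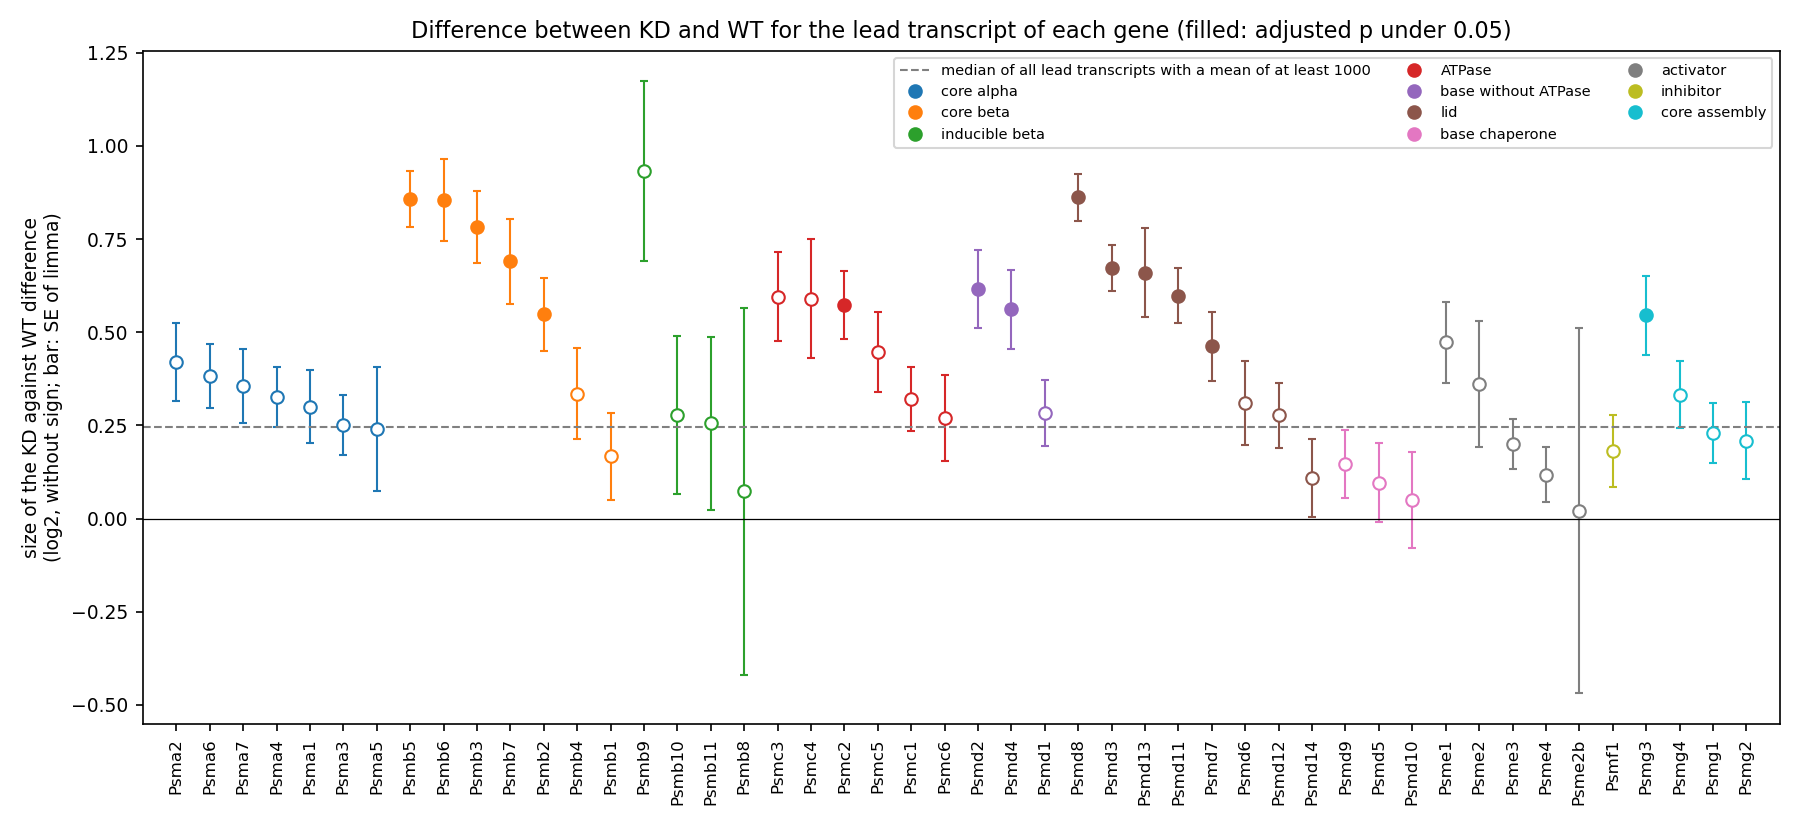
Size of the difference between KD and WT on the log2 scale, without sign (vertical axis), for the lead transcript of each proteasome gene, coloured by class, with filled points for an adjusted p under 0.05 and bars for the SE of limma. The dashed line marks 0.25, the median of all lead transcripts with a mean of at least 1000, and 28 of the 31 constitutive core, ATPase, base and lid genes lie above it. The median SD within groups was larger for the members than for those transcripts, 0.12 against 0.08, and sizes without sign grow with it.

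In the regulatory particle, Psmd8, a lid subunit, had the largest size among the calls. Its group means were 5635 and 10239, a 1.82-fold difference (1.62 to 2.04, adjusted p = 0.0160, limma), and 96.5% of the level of the gene came from this transcript. Psmd3, a lid subunit, had group means of 6648 and 10591 (1.59-fold, 1.42 to 1.78, adjusted p = 0.0183). Its libraries within a group differed little, with an SD of 0.01 on the log2 scale. This was below the 0.02 from the assignment of reads to transcripts, so with 2 libraries per group it may be an underestimate. Psmd13 had 5321 and 8408 (1.58-fold, 1.27 to 1.96, adjusted p = 0.0417), and Psmd7 had 9488 and 13068 (1.38-fold, 1.17 to 1.63, adjusted p = 0.0496). The other lid genes were smaller, with 0.31 on the log2 scale for Psmd6, 0.28 for Psmd12 and 0.11 for the deubiquitinase Psmd14 (adjusted p = 0.161, 0.123 and 0.555, limma).

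The lid subunit Psmd11 was split almost evenly between transcripts with the same coding length of 1266 bases, which held 51.1% and 48.9% of its level. The first differed by 0.60 (adjusted p = 0.0239) and the other by 0.55 (adjusted p = 0.0450, limma). Both forms of Psmd11 thus showed a difference of similar size, although 71.6% and 52.0% of their words were unique among genes.

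In the base, the scaffold subunit Psmd2 had group means of 22703 and 34803 (1.53-fold, 1.27 to 1.85, adjusted p = 0.0375, limma). The ubiquitin receptor Psmd4 had 3 tested transcripts with 77.8%, 15.1% and 7.09% of its level, which differed by 0.56 (adjusted p = 0.0457), 0.28 (adjusted p = 0.191) and 0.50 (adjusted p = 0.0472). The scaffold Psmd1 differed by 0.28 (adjusted p = 0.122). Of the ATPases, Psmc2 had group means of 8257 and 12278 (1.49-fold, 1.26 to 1.75, adjusted p = 0.0341). Psmc3 and Psmc4 had sizes of 0.59 each, as large as that of Psmc2, but wider spreads and adjusted p of 0.0509 and 0.0922 (limma). With 1 transcript per gene, 5 of the 6 ATPase genes passed, all but Psmc6, against 24.0% of all genes of any level.

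In the fit over all transcripts, the chaperones of the base had the smallest median size of the classes with more than 1 gene, 0.10. Psmd9, Psmd5 and Psmd10 differed by 0.15, 0.10 and 0.05 on the log2 scale (adjusted p = 0.370, 0.608 and 0.845, limma). Their intervals ended at 1.31-fold, 1.30-fold and 1.31-fold. These lie below the lower bounds of some called genes, such as 1.62-fold for Psmd8 and 1.42-fold for Psmd3, and above those of others, such as 1.26-fold for Psmc2 and 1.17-fold for Psmd7. Of the 14 Psmd genes in all, the 7 that passed were lid and base subunits, against 21.7% of all lead transcripts with a mean of at least 1000. The base chaperones are too few for their lack of calls to be set against that share.

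Of the activators, the inhibitor and the core assembly factors, Psmg3 passed. With 1 transcript per gene Psme1 and Psmg4 passed too, with adjusted p of 0.0130 and 0.0323 (limma). Psme1 had group means of 1570 and 2179 (1.39-fold, 1.14 to 1.69, adjusted p = 0.0662, limma), and Psme2 of 4574 and 5872 (1.28-fold, 1 to 1.75, adjusted p = 0.250). Psme3 and Psme4 were measured with low spread and differed by 0.20 (SE 0.07, adjusted p = 0.138) and 0.12 (SE 0.07, adjusted p = 0.362). Psme2b differed by 0.02 with an SE of 0.49. The inhibitor Psmf1 had 71.1% and 28.9% of its level in transcripts of equal coding length, 813 bases, which differed by 0.18 (adjusted p = 0.304) and 0.48 (adjusted p = 0.141).

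Of the core assembly factors, Psmg3 had group means of 873 and 1274 (1.46-fold, 1.20 to 1.77, adjusted p = 0.0483, limma). A minor transcript of Psmg3 with a level of 87.5 differed by 1.06 (adjusted p = 0.0493). Both transcripts share words with Gm26938, 24.4% and 29.6% of them, at a level of 49.3. Psmg4 had 907 and 1142 (adjusted p = 0.0904), Psmg1 had 1534 and 1799 (adjusted p = 0.151) and Psmg2 had 1900 and 2197 (adjusted p = 0.273). Psmg1 and Psmg2, which form a dimer, thus did not pass, and Psmc3ip, the member outside the proteasome, differed by 0.07 (adjusted p = 0.651).

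The minor transcripts of other genes were mostly of low level and mostly wide in error. A minor Psma3 transcript had a level of 1496 and differed by 0.72 (SE 0.29, adjusted p = 0.192, limma). It shared 79.0% of its words with Gm13835, which had a level of 5124. Minor transcripts of Psmb1 and Psmg4, with levels of 560 and 479, had SEs of only 0.10 and 0.11. The minor Psmb5 transcript, with 26.0% of the level of the gene, differed by 0.87 (SE 0.22, adjusted p = 0.0837, limma), close to the 0.86 of the lead transcript. The largest size of any member, 2.90, belonged to a Psmd12 transcript with a level of 7.99 and an SE of 1.79. In 43 of the 49 genes the lead transcript held more than 90% of the level, and 32 genes had 1 tested transcript. Over the lead transcripts of members the median SD within groups was 0.12 on the log2 scale, and the median SD from the assignment of reads to transcripts was 0.02. For 32 of 49 lead transcripts at least 90% of the words were unique to the gene, and for 5 fewer than 50% were (Psmb5, Psmb3, Psma5, Psme2 and Psme2b).

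Sizes were larger in members whose transcripts were richer in G and C. Over 43 genes, leaving out the inducible beta genes, Psme2b and Psmc3ip, size and GC content of the lead transcript had a Spearman rho of 0.63 and a Pearson r of 0.62. Of the 20 genes with at least 50% GC, 10 passed, and of the 23 below it, 4 did. Among all lead transcripts with a mean of at least 1000, 25.5% passed at or above 50% GC and 18.2% below it, so the count of members below 50% lies near its background. Psmd3 was the richest with 58.3%, and the medians of the alpha and beta genes were 45.0% and 52.2%. Over all 7493 lead transcripts with a mean of at least 1000 the Spearman rho was 0.13. Size went with the log of the level with a rho of 0.12 and with transcript length with a rho of -0.34 over the same 43 genes. These are descriptions across genes that share the 4 libraries and the same normalisation, and the part of GC content in the differences was not tested.

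**Figure D3:**
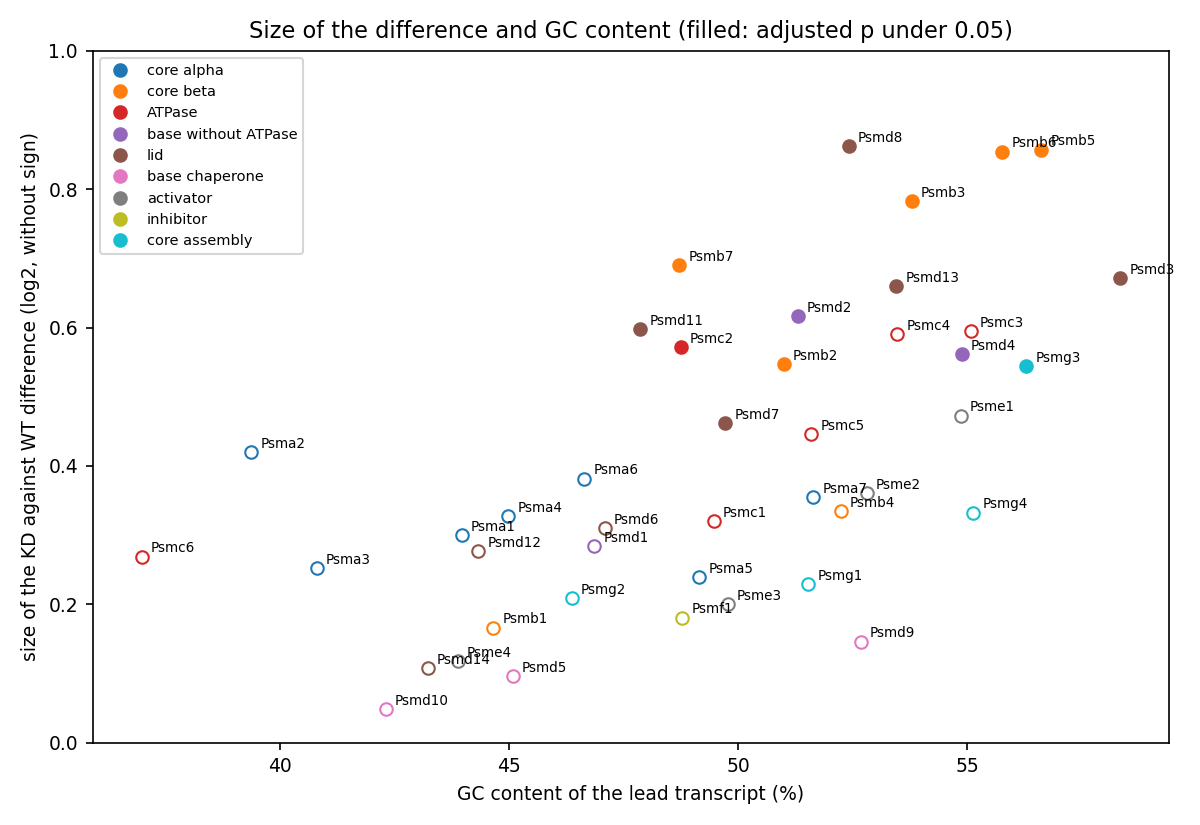
GC content of the lead transcript in % (horizontal axis) and size of the difference between KD and WT on the log2 scale, without sign (vertical axis), for 43 proteasome genes coloured by class, with filled points for an adjusted p under 0.05. Points rise from left to right, and 10 of the 14 filled points lie at or above 50% GC.

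The promoter windows of 42 of the 49 genes were found in the RefSeq table, in 45 windows, while Psmb1, Psmb2, Psmb7, Psmc3, Psmd3, Psmd7 and Psmg2 had no window there. TGACNNNGC, the core of the antioxidant response element that Nfe2l1 and small Maf proteins are known to bind, was present on either strand in 13.3% of member windows and in 12.4% of all 32851 windows. It occurred in Psmb5, Psmb6, Psmc6, Psmd9, Psmd12 and Psme4, that is in 2 of the 10 called genes with a window. In Psmb5 and Psmb6 it stood 47 and 9 bases before the start. CCGGAA, the core of ETS family sites, was present in 48.9% of member windows against 14.9% of all. It occurred in 6 of the 10 called genes, near its share of 21 of the 42 member genes with a window. GGGCGG, the GC box, was present in 53.3% against 35.7%, AAGATGG, a core of YY1 sites, in 17.8% against 6.34%, and CCAAT in 33.3% against 37.4%. Different words were searched separately and their matches may overlap. The 32851 windows were not limited to genes with a level like that of the members, and no share matched for level was computed. The counts describe these letters in these windows only, and the window of Psmd8 does not cover the start of its lead transcript.

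Of 32 other genes of the ubiquitin-proteasome pathway, 31 were in the table with 69 transcripts, and 11 transcripts of 9 genes passed, which can be read against 9.68% of all transcripts. The lead transcript passed for 6 of 31 genes, near the 21.7% of all lead transcripts with a mean of at least 1000, and the median size over the 31 lead transcripts was 0.29. Adrm1, the ubiquitin receptor of the base that lacks a Psm symbol, differed by 0.70 (adjusted p = 0.0267, limma), within the range of the called lid and base genes. Pomp, the chaperone of the beta ring, differed by 0.29 (SE 0.18, adjusted p = 0.359). Nploc4 and Vcp, which together extract ubiquitylated proteins from complexes, differed by 0.80 (adjusted p = 0.0165) and 0.51 (adjusted p = 0.0443), whereas their partner Ufd1 differed by 0.11. The ubiquitin gene Ubb differed by 0.43 (adjusted p = 0.0368).

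Among regulators of subunit transcription, the small Maf genes Mafg and Mafk both differed by 0.40 (adjusted p = 0.0390 and 0.0417, limma). Nfe2l1 had 6 tested transcripts, and a difference between them was not tested. Its lead transcript, with a level of 9486, differed by 0.52 (adjusted p = 0.0863), and the next, with a level of 6029 and the same coding length of 2223 bases, by 0.12 (adjusted p = 0.468). The 3 transcripts that passed start farther downstream in the gene. One with a level of 2178 and a coding length of 1749 bases differed by 0.92 (adjusted p = 0.0318, limma), and one with a level of 630 and a coding length of 1359 bases by 1.49 (adjusted p = 0.0171). The other, with a level of only 14.2, has a coding length of 2226 bases, so it is not shorter than the lead in coding sequence. It differed by 2.36 (adjusted p = 0.0367, limma). Minor transcripts of Ddi2, the protease that cuts Nfe2l1, and of the ubiquitin fusion gene Rps27a passed with 0.59 and 0.64 (adjusted p = 0.0487 and 0.0315, limma), while their lead transcripts did not.

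**Figure D4:**
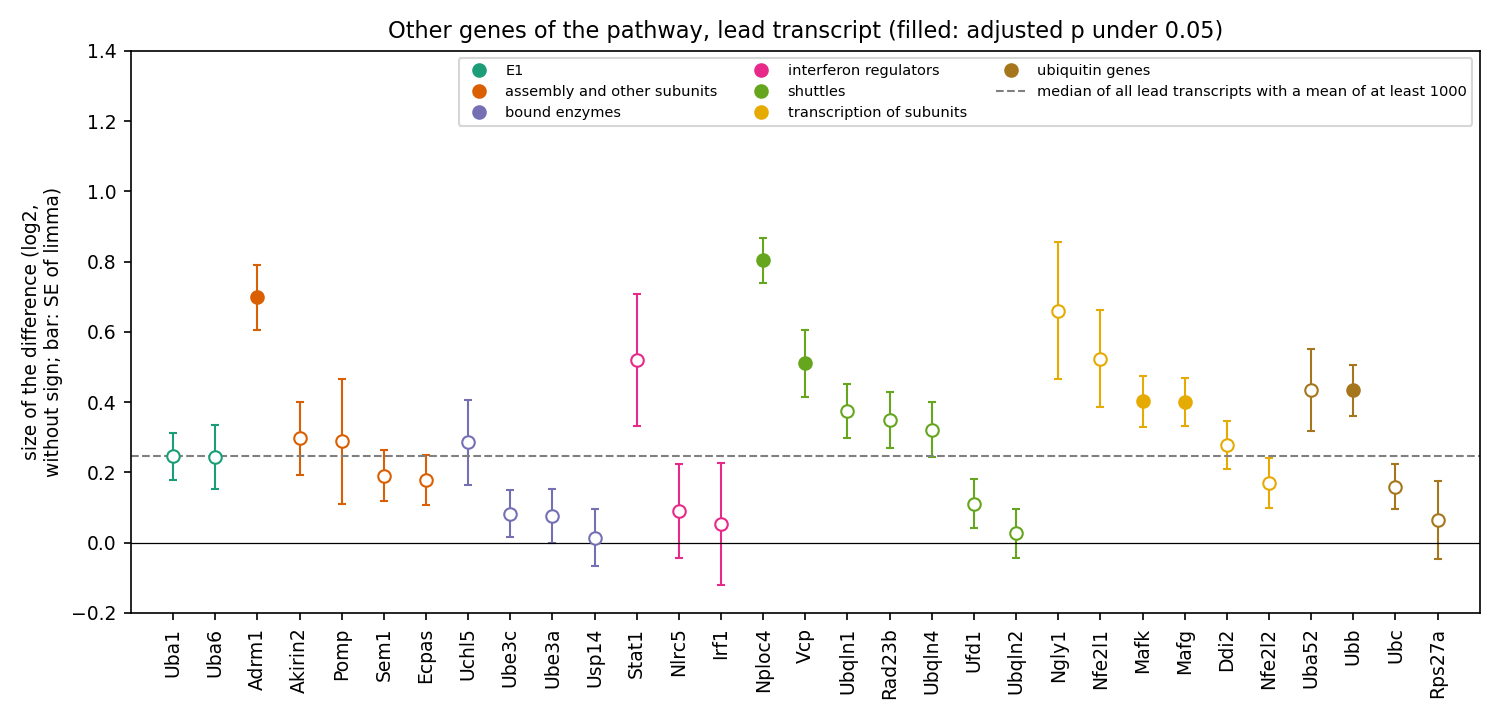
Size of the difference between KD and WT on the log2 scale, without sign (vertical axis), for the lead transcript of 31 other genes of the ubiquitin-proteasome pathway, coloured by role, with filled points for an adjusted p under 0.05 and bars for the SE of limma. The 6 filled points are Adrm1, Nploc4, Vcp, Mafk, Mafg and Ubb, and the dashed line marks the 0.25 of all lead transcripts with a mean of at least 1000.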

How the data were processed

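PolyA RNA libraries (stranded TruSeq kit) of 2 KD and 2 WT samples were analysed, grouped by their labels. The authors trimmed reads with BBDuk, quantified transcripts with Kallisto and compared groups with Sleuth. The index is not given in the sources used here, the labels name GRCm38, and 98.6% of transcripts matched GENCODE M21 by identifier and version. The deposited table holds, per transcript, the authors' mean over the 4 libraries on the natural log scale of normalised estimated counts plus 0.5, and variances on that scale. Its other columns and a gene table hold the effects, test statistics, p-values and q-values of the authors' comparison of KD with WT and were not used, although they carry the sign of each difference. 

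The residual variance with 2 degrees of freedom was taken as the sum of the deposited variance between libraries within groups and that of the read assignment. The sum of squares between groups was the total minus the residual one. By construction its square root gives the size of the difference of group means. A moderated F test was computed with limma 3.58.1 in R 4.3.3 (prior following the mean level, prior degrees of freedom 2.67) and adjusted by Benjamini-Hochberg over 34200 transcripts. In simulated data of that size, with 200 changed transcripts of a mean of at least 1000, it recovered 92% of the 100 with a log2 change of 0.5 and 100% of the 100 with a change of 1, with 5 false calls. The simulated noise was normal, and its spread followed the trend with the mean level exactly. Real transcripts scatter around that trend, so these rates do not carry over to the real data. Unique words of 31 bases were counted against all GENCODE M21 transcripts. Named were the highest and lowest genes of each class, every called member, all Psme, Psmf and Psmg genes, the catalytic beta genes, Psma7, Psma8 and Psmc3ip, called pathway genes, Nfe2l1, Pomp and Setd2. Members and lists were chosen with earlier results of these data known. Other genes named for the closeness of their values, and the GC comparison, were chosen after their values were seen. A gene of the pathway list is not reported here and was left out of its counts.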

Additional observations from a re-analysis of the deposited data

How the results depend on the processing

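The member calls depend on how the spread is estimated. With a prior variance without a trend, 0 member transcripts passed (22 at an unadjusted p under 0.05) and 127 of all transcripts. With an unmoderated F test, 0 members passed (19 unadjusted) and 10 of all. Setd2, whose size of 1.99 these settings cannot change, had an adjusted p of 0.0537 and 0.103 under these settings (limma prior without a trend, and unmoderated). The cause was not tested. With a mean of at least 100, 26 of 58 members passed, a share of 44.8% against 26.4% of all. Of these 26 members, 16 passed with all transcripts. With 1 transcript per gene (chosen after seeing the data), 25 member genes and 5257 of all genes passed. Fewer transcripts were tested in both settings. Neither background was limited to a mean of at least 1000, so abundance was not matched there. With a robust prior 18 members passed, 17 of them shared.

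Of 44 alternatives for levels, 36 stayed within the spread. With lead transcripts only, the base without ATPase moved to 5386 and the inhibitor to 322. With 200 bases taken off each length, the activators moved to 2028, the alpha genes to 12463, the core assembly factors to 2173 and the inhibitor to 761. The beta genes also rose, from 11300 to 13600, and the base without ATPase from 6850 to 8052. Both counted as within the spread of their own class, which is wider where KD and WT differ more. The labels therefore do not rank the classes by how far they moved. With a mean of at least 100, activators moved to 2704 and inducible beta genes to 544.

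No paired analysis was possible because the values in each library are not analysed here, and leaving out each replicate gave no value either. A chi-square test on the authors' smoothed variance was planned and not run, since it would rebuild the authors' own test.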
